A study of Mus musculus with 12 samples.

Results

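The genes described are 9 members of the bone morphogenetic protein (BMP) system: the ligand genes *Bmp2*, *Bmp4* and *Bmp6*, the type I receptor genes *Bmpr1a*, *Bmpr1b* and *Acvr1*, the type II receptor gene *Bmpr2*, and the genes of the secreted antagonists gremlin 1 (*Grem1*) and noggin (*Nog*). They were found by matching the Ensembl identifiers of the count matrix, without their version, to gene symbols, and all 9 were among its 56980 genes. They were followed in bulk RNA-Seq of W-20 cells, a murine bone marrow stromal cell (BMSC) line, with 12 libraries, 3 in each of 4 groups. WT cells, the unmodified line, and Y428F cells were exposed for 2 hours to vehicle (PBS) or to 50 nM parathyroid hormone (PTH). Y428F cells carry an introduced YAP, the transcriptional coactivator of the Hippo pathway, in which a tyrosine was replaced by phenylalanine. Per the study's methods the Y428F constructs were made in Flag-tagged plasmids named for a CMV promoter, a lentiviral vector named for a PGK promoter was also used for YAP, and positive clones were selected with puromycin. The study describes this substitution both alone and together with a serine-to-alanine substitution, and its text names the doubly substituted line for the comparison with WT cells, whereas the library titles read only Y428F. The genotype label of the Y428F libraries reads WT, so the titles were used. No library is titled as cells with an introduced unmutated YAP, so the substitution, the introduced YAP and any other difference between the lines cannot be told apart. The labels do not say whether replicates came from separate cultures, so p-values measure the spread between these libraries only.

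BMP ligands bind a complex of type I and type II serine/threonine kinase receptors on the cell surface. The activated type I receptor phosphorylates SMAD1, SMAD5 and SMAD9, which enter the nucleus with SMAD4 and switch on genes such as those of the ID proteins. Noggin, gremlin 1 and chordin bind the ligands outside the cell and keep them from their receptors, and SMAD6 and SMAD7 restrain the signal inside it. In bone marrow stroma the pathway is known for directing cells toward osteoblasts, and BMP4 has also been linked to adipocyte formation.

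Library totals ranged from 17127897 to 19057319 counts. Expression is given in CPM, library-size-scaled counts with edgeR's TMM factors, and 3 counts in a library, the level that an observed count of 0 still allows, were worth 0.152 to 0.185 CPM. These limits and the intervals given for ratios cover counting error only. At this depth 5 of the 9 genes had a mean above 1 CPM over the 12 libraries, and 6 had at least 10 counts in total and were tested. *Bmp2*, *Grem1* and *Nog* were not tested. As a check of the label, 7 of 8 stromal markers were detected, led by the collagen gene *Col1a2* with a mean of 12830 CPM in WT cells with vehicle, whereas *Thy1* had 0 counts in every library. The osteoblast markers *Bglap*, *Ibsp*, *Dmp1* and *Sp7* summed to at most 0.228 CPM in any library, and *Adipoq* and *Cfd*, which mark adipocytes, had 0 counts, although *Lpl* of the same list had 330.2 CPM in WT cells with vehicle.

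**Figure D1:**
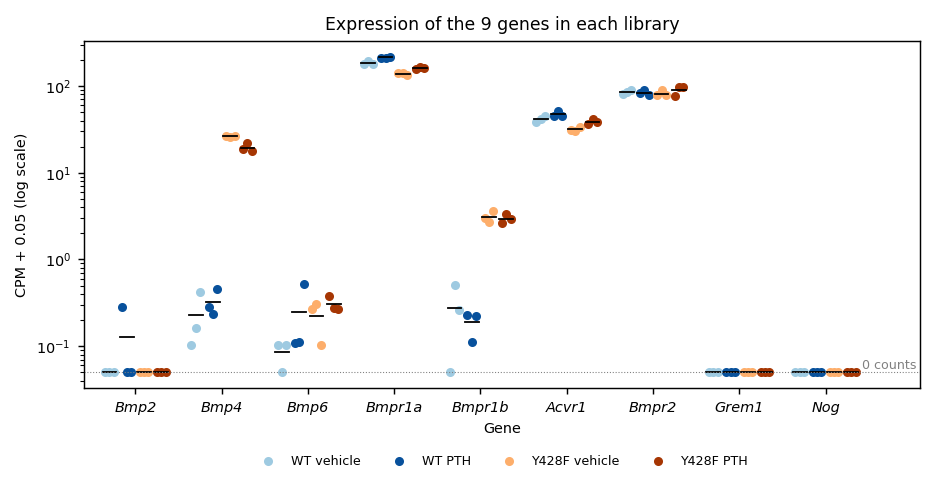
Expression of the 9 genes, as CPM plus 0.05 on a log scale, with a point for each of the 12 libraries and a line for the mean of 3 libraries. *Bmp4* and *Bmpr1b* were near the limit of detection in WT cells and clearly detected in Y428F cells, where *Bmp4* ranged from 17.7 to 26.7 CPM, and *Grem1* and *Nog* lay on the dotted line that marks 0 counts.

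Of the ligand genes, *Bmp4* was the only member above 1 CPM, and that in Y428F cells. *Bmp4* (ENSMUSG00000021835.16) lies on the minus strand of chromosome 14, from 46620250 to 46636745 on GRCm39. In WT cells it had 1, 2 and 7 counts with vehicle and 4, 3 and 7 counts with PTH, or 0.181 ± 0.172 and 0.276 ± 0.117 CPM (SD, n = 3). In Y428F cells it had 26.2, 25.7 and 26.7 CPM with vehicle and 19.0, 21.7 and 17.7 CPM with PTH. Every Y428F library was far above every WT library, and within Y428F cells the PTH libraries lay below the vehicle libraries without overlap. The ratio of Y428F to WT cells was 144 with vehicle (95% exact counting interval 78.2 to 301.5) and 70.1 with PTH (41.6 to 129). The corresponding log2 fold changes were 7.12 (SE 0.23, adjusted p = 1.745e-15) and 6.10 (SE 0.23, adjusted p = 1.347e-14). The value with vehicle rested on few WT counts and was 8.20 without WT vehicle replicate 3, which held 7 of the 10.

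With PTH, *Bmp4* fell in Y428F cells by 0.43 on the log2 scale (SE 0.11, adjusted p = 0.0161). The call was lost, with an adjusted p between 0.0569 and 0.0914, without any of 4 single libraries, vehicle replicates 1 and 3 and PTH replicates 1 and 3. In the same comparison *Col1a1*, a collagen gene and stromal marker, fell by 0.33 on the log2 scale (adjusted p = 0.0218), the 1 call among 7 stromal markers tested, and the summed median of these markers was 15540 CPM with vehicle and 13910 CPM with PTH. Their part in the fall of *Bmp4* was not tested. In WT cells the log2 fold change was 0.60 (SE 0.83, adjusted p = 0.72), and at these counts a change of the size seen in Y428F cells was not detectable. With single libraries left out, the WT value ranged from 0.18 to 1.68. The difference between the responses was -1.02 on the log2 scale, with a 95% interval from -2.19 to 0.14 (adjusted p = 0.794). That difference ranged from -2.10 to -0.59 with single libraries left out.

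*Bmp2* (ENSMUSG00000027358.7, plus strand of chromosome 2, 133394079 to 133404816), which encodes an osteogenic ligand close in sequence to BMP4, had 4 counts in WT PTH replicate 1 and 0 in the other libraries. *Bmp6* (ENSMUSG00000039004.7, plus strand of chromosome 13, 38529065 to 38684280), whose product is known in bone and in iron control, had 0 to 8 counts per library, and the group means were between 0.0355 and 0.259 CPM. Its 10 counts in WT cells with PTH against 2 with vehicle gave a ratio of 5.47 (95% exact counting interval 1.17 to 51.3), but 8 of the 10 were in replicate 3. The log2 fold changes fitted for PTH were 2.25 in WT cells (SE 1.31, adjusted p = 0.272) and 0.54 in Y428F cells (adjusted p = 0.783), and neither passed the threshold. Between the lines it was 2.09 with vehicle (adjusted p = 0.142) and 0.38 with PTH (adjusted p = 0.753).

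The 250 bases before the start of the canonical transcript are shown for *Bmp4*, whose level separated the lines, and for the receptor genes *Bmpr1a* and *Acvr1*, which differed less. The sequences are from GRCm39, each on the minus strand and written 5′ to 3′. *Bmp4* is at chr14:46628127-46628376, *Bmpr1a* at chr14:34224758-34225007 and *Acvr1* at chr2:58457771-58458020. The windows of *Bmp4* and *Bmpr1a* lie within the annotated extent of the gene, since other transcripts start farther upstream. Capitals mark letters that matched a searched motif on either strand.
Bmp4: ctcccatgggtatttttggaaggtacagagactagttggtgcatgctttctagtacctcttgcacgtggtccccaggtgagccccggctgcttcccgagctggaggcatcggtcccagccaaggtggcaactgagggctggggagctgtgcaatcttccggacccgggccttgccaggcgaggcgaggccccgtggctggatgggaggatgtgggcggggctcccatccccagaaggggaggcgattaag
Bmpr1a: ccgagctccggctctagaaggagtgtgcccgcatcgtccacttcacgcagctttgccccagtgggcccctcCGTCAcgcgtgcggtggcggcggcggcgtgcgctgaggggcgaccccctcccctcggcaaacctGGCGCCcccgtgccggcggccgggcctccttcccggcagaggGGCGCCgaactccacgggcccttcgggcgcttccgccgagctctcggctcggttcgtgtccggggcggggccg
Acvr1: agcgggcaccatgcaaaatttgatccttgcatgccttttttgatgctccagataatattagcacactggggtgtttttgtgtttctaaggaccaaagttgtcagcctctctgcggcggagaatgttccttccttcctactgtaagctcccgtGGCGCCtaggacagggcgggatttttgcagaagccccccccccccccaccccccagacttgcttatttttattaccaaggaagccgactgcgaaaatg

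The motifs were the cAMP response element TGACGTCA, its core TGACG, which the full element contains, the TEAD motif GGAATG, through which YAP acts on DNA, and the SMAD1/5 motif GGCGCC. Of 21631 windows of the same length before the starts of protein-coding genes, 1.69% held the full element, 18.0% its core, 12.1% the TEAD motif and 9.32% the SMAD1/5 motif. The window of *Bmp4* held none of these motifs. That of *Bmpr1a* held the core 179 bases before the start, as CGTCA, and the SMAD1/5 motif at 115 and 73 bases, and that of *Acvr1* held the SMAD1/5 motif at 98 bases. *Bmpr2* held it at 90 bases. *Grem1* held the TEAD motif at 250 bases, as CATTCC, and the SMAD1/5 motif at 71 bases. The windows of *Bmp2*, *Bmp6* and *Nog* held no match. These matches describe letters in a window and were not tied to binding.

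Among the type I receptors, *Bmpr1a* was the most abundant per length in every group. *Bmpr1a* (ENSMUSG00000021796.16, minus strand of chromosome 14, 34132687 to 34225379), which encodes the receptor ALK3, had 181.4, 192.8 and 178.7 CPM in WT cells with vehicle and 209.5, 212.9 and 219.0 CPM with PTH. In Y428F cells it had 139.9, 141.7 and 134.3 CPM with vehicle and 157.4, 166.3 and 160.5 CPM with PTH. From highest to lowest the groups ran WT PTH, WT vehicle, Y428F PTH and Y428F vehicle, and no library of a group overlapped those of the next. *Bmpr1a* rose with PTH by 0.22 on the log2 scale in WT cells (SE 0.06, adjusted p = 0.0265) and by 0.22 in Y428F cells (SE 0.05, adjusted p = 0.00792). The difference between the responses was 0.005 (SE 0.07, adjusted p = 0.9999). Expression was lower in the Y428F line, by log2 fold changes of -0.41 with vehicle (adjusted p = 1.478e-06) and -0.41 with PTH (adjusted p = 1.592e-06). The call in WT cells was lost without vehicle replicate 3, PTH replicate 1 or PTH replicate 2 (adjusted p 0.105, 0.0679 and 0.0628) and with scaling by library totals only (log2 fold change 0.16, adjusted p = 0.0994), whereas the call in Y428F cells held in all 18 alternatives.

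*Acvr1* (ENSMUSG00000026836.16, minus strand of chromosome 2, 58278656 to 58457770) encodes the type I receptor ALK2. It had 38.3, 41.7 and 45.2 CPM in WT cells with vehicle, 44.9, 50.9 and 45.7 CPM with PTH, 31.2, 30.6 and 34.0 CPM in Y428F cells with vehicle and 36.0, 41.8 and 38.5 CPM with PTH. The Y428F vehicle libraries lay below those of the other groups, while WT vehicle libraries overlapped with both PTH groups. *Acvr1* rose with PTH in Y428F cells by 0.28 on the log2 scale (SE 0.08, adjusted p = 0.0257). That call was lost, with adjusted p between 0.0576 and 0.111, without Y428F vehicle replicate 1 or 2 or PTH replicate 2 or 3. In WT cells the log2 fold change was 0.18 (SE 0.08, adjusted p = 0.189), and the difference between the responses, 0.11, did not pass the test (adjusted p = 0.914). *Acvr1* was lower in Y428F than in WT cells, by a log2 fold change of -0.39 with vehicle (adjusted p = 0.000456) and -0.28 with PTH (adjusted p = 0.00603), the latter with an adjusted p of 0.0501 without WT PTH replicate 2.

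*Bmpr1b* (ENSMUSG00000052430.16, minus strand of chromosome 3, 141542897 to 141875323), which encodes ALK6, a receptor known for its part in cartilage formation, had 0, 8 and 4 counts in WT cells with vehicle and 3, 1 and 3 counts with PTH. In Y428F cells it had 54, 53 and 66 counts with vehicle and 46, 59 and 52 counts with PTH, or 3.08 ± 0.474 and 2.91 ± 0.382 CPM (SD, n = 3). The lines did not overlap, and the vehicle and PTH libraries of each line did. The ratio of Y428F to WT cells was 14.1 with vehicle (95% exact counting interval 7.87 to 27.8) and 20.9 with PTH (9.92 to 52.9), and the log2 fold changes were 3.77 (SE 0.45, adjusted p = 4.866e-07) and 4.32 (SE 0.50, adjusted p = 3.28e-07). The value with vehicle was 3.18 without WT vehicle replicate 1, which had 0 counts, and 4.76 without WT vehicle replicate 2, which had 8. With PTH it had log2 fold changes of -0.63 in WT cells (adjusted p = 0.765) and -0.08 in Y428F cells (adjusted p = 0.922), neither past the threshold. Even in Y428F cells *Bmpr1b* was a small part of the type I receptor transcripts. Per kilobase of exon, it made up 0.105% ± 0.105 of their CPM in WT cells with vehicle and 1.92% ± 0.310 in Y428F cells with vehicle (SD, n = 3). *Bmpr1a* made up 79.1% and 77.4%, and *Acvr1* 20.8% and 20.7%.

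*Bmpr2* (ENSMUSG00000067336.7, plus strand of chromosome 1, 59802544 to 59918173) encodes the type II receptor specific to BMP ligands. It had 80.9, 85.0 and 88.9 CPM in WT cells with vehicle, 82.3, 91.2 and 78.6 CPM with PTH, 77.8, 89.0 and 77.9 CPM in Y428F cells with vehicle and 76.3, 96.7 and 97.1 CPM with PTH. The 4 groups overlapped, and no comparison passed the test. The log2 fold changes with PTH were -0.0095 in WT cells (SE 0.07, adjusted p = 0.962) and 0.14 in Y428F cells (adjusted p = 0.329), and those between the lines were -0.06 with vehicle (adjusted p = 0.621) and 0.10 with PTH (adjusted p = 0.358). Without Y428F PTH replicate 1, the lowest of its group, *Bmpr2* passed the test in Y428F cells with PTH (0.25, adjusted p = 0.0275) and between the lines with PTH (0.20, adjusted p = 0.0297). Per kilobase of exon, the receptor levels in WT cells with vehicle were 23.8 CPM for *Bmpr1a*, 6.25 CPM for *Acvr1* and 4.70 CPM for *Bmpr2*.

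The antagonist genes *Grem1* (ENSMUSG00000074934.4, minus strand of chromosome 2, 113576509 to 113589000) and *Nog* (ENSMUSG00000048616.5, minus strand of chromosome 11, 89191464 to 89193158) had 0 counts in each of the 12 libraries. Expression of either was thus not detectable, and a level of up to 0.152 to 0.185 CPM, depending on the library, is allowed by that count. No fold change was computed for them.

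**Figure D2:**
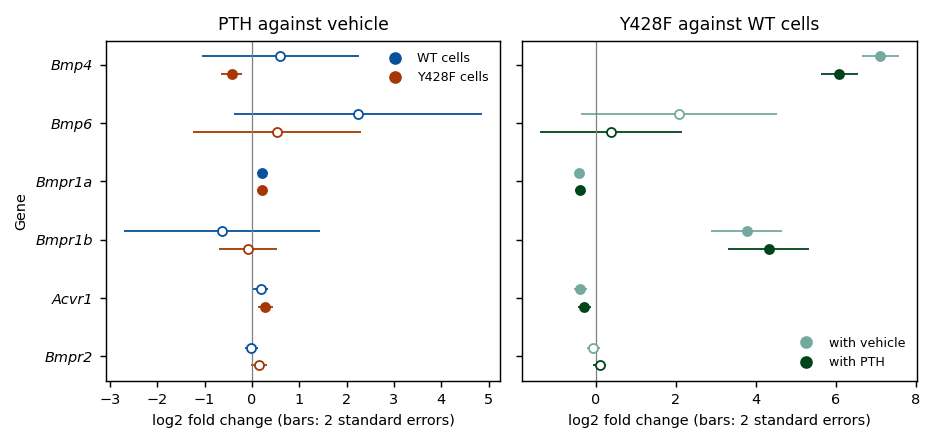
Log2 fold changes of the 6 tested genes with PTH in each line (left) and between the lines with each treatment (right), with bars of 2 standard errors. Filled points had an adjusted p under 0.05, and the changes of *Bmp4* and *Bmpr1b* between the lines, from 3.77 to 7.12, were the largest called.

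By comparison, 1 of the 6 tested members rose with PTH in WT cells, where 6.88% of all 15583 genes tested were called higher, and 0 fell, where 4.91% were called lower. In Y428F cells 2 members rose and 1 fell, and of 17691 genes tested 6.61% were called higher and 5.78% lower. Scaling by library totals moved the share of higher calls among all calls from 58.4% to 38.0% in WT cells and from 53.4% to 38.1% in Y428F cells. Between the lines 2 members were higher and 2 lower in Y428F cells with vehicle, and the same 4 genes with PTH. Of all genes, 22.4% were called higher and 22.7% lower with vehicle, and 22.8% and 23.0% with PTH. The comparisons of the lines with each treatment used different libraries, but each shared its libraries with a PTH comparison. Of the 6 tested members, 0 differed in their response to PTH by edgeR's quasi-likelihood test, and 0 had an unadjusted p under 0.05. DESeq2 also called 0, with *Bmp6* left without an adjusted p. Over all genes 0.17% were called higher and 0.243% lower in that comparison. With PTH the 6 members had median log2 fold changes of 0.20 (WT) and 0.18 (Y428F), against -0.01 and -0.01 over all genes tested.

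The line comparison went with changes in marker genes. The 7 stromal markers tested were all lower in Y428F cells with vehicle, with a median summed level of 15540 CPM against 23990 CPM in the WT vehicle libraries. Of the 4 blood markers *Ptprc* was the most abundant, at 0.853 CPM in WT vehicle libraries and 2.79 CPM in Y428F vehicle libraries, while *Adgre1* had at most 1 count in a library. *Ptprc* was the 1 of 3 blood markers tested that was called, and *Itgam* lay the other way, at 0.143 CPM (8 counts over the group) and 0.0182 CPM (1 count). Of the 4 endothelial markers *Cdh5* was the most abundant, at 0.810 and 7.95 CPM, while *Pecam1* and *Kdr* had at most 0.303 CPM in a library. *Cdh5* was the 1 of 4 endothelial markers tested that was called, and *Tek* had 0.540 and 0.623 CPM. The blood markers summed to a median of 1.29 CPM in WT vehicle libraries and 3.50 CPM in Y428F vehicle libraries. The endothelial markers summed to 1.59 and 8.85 CPM, most of it *Cdh5* in the Y428F line. The epithelial markers summed to 0.159 and 0.931 CPM, with *Epcam* and *Krt5* at 0 counts in every library. *Cdh1*, at 0.0924 and 0.675 CPM, was the 1 of 2 epithelial markers tested that was called. The part of the marker genes in the differences of *Bmp4* and *Bmpr1b* was not tested. In bulk RNA, fewer cells of a type and less RNA per cell cannot be told apart.

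*Bmp4* and *Bmpr1b* were also set beside 12037 genes whose mean was 1 CPM or more, by the root mean square difference of centred log2 CPM over the 12 libraries. Closest to *Bmp4* were *Mmrn1* (0.42), which encodes the secreted glycoprotein multimerin 1, and *Gpnmb* (0.45), which encodes a transmembrane glycoprotein. Both lie on chromosome 6, whereas *Bmp4* lies on chromosome 14. *Gpnmb* had 2.22 and 2.42 CPM in WT cells and 193.8 and 184.8 CPM in Y428F cells, with vehicle and PTH. *Mmrn1* had 0.0179 CPM and 0 counts in WT cells and 9.62 and 9.91 CPM in Y428F cells. Closest to *Bmpr1b*, a gene of chromosome 3, were *Pdzd4* (0.37) on chromosome X and *Slc9b1* (0.39) on chromosome 3. *Pdzd4* had 0.421 and 0.259 CPM in WT cells and 5.43 and 4.84 CPM in Y428F cells, and *Slc9b1* 0.147, 0.236, 2.74 and 3.06 CPM in the same order.

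The nearest tested protein-coding genes on each side, without overlap, were looked at after these values were seen. Noncoding genes were left out. Those beside *Bmp4* were *Ddhd1*, 724393 bases away, and *Cdkn3*, 361159 bases away. *Ddhd1* was lower in Y428F cells with vehicle, by a log2 fold change of -1.17 (adjusted p = 2.489e-11), and *Cdkn3* had a value of 0.19 (adjusted p = 0.285). Next to *Bmpr1b* were *Unc5c*, 2212 bases away, with 1.47 (adjusted p = 0.0329), and *Pdlim5*, 70022 bases away, with 0.09 (adjusted p = 0.265). *Unc5c* was a low gene, with a mean of 0.671 CPM over the 12 libraries. With PTH the line difference of *Unc5c* was 3.16 (adjusted p = 0.000251), and that of *Pdlim5* was -0.67 (adjusted p = 1.475e-08). The difference between the responses of *Unc5c*, 1.69, did not pass the test (adjusted p = 0.759). *Pdlim5* rose with PTH in WT cells by 2.57 and in Y428F cells by 1.80 on the log2 scale (adjusted p = 5.949e-11 and 4.03e-13), and its rise was smaller in Y428F cells by a log2 difference of -0.76 (adjusted p = 0.000181), whereas *Bmpr1b* did not pass the test in either line. On either side of the undetected *Grem1*, *Fmn1* and *Arhgap11a* had means of 116.3 and 52.9 CPM.

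The other 61 genes of the pathway list were described with the same tests. The lists were chosen with earlier results of these data known, so counts of called genes in them are descriptions only. Among 13 further ligand genes, 7 had 0 counts in every library, 11 had under 10 counts in total, and 0 had a mean above 1 CPM, so *Bmp4* in Y428F cells was the only BMP ligand gene of the 16 examined that reached 1 CPM as a group mean. Of 16 further antagonists and modulators, 5 had 0 counts in every library and 7 had a mean above 1 CPM. Those detected were led by *Fstl1*, *Crim1* and *Twsg1*, the genes of follistatin-like 1, a transmembrane BMP-binding protein and twisted gastrulation.

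With PTH, 13 of the 36 pathway genes tested rose and 2 fell in WT cells, with a median log2 fold change of 0.12 against -0.01 over all genes, of which 6.88% were called higher and 4.91% lower. In Y428F cells 14 of 40 rose and 3 fell, with a median of 0.11, or 0.09 with genes that had a group at 0 counts set at their bound, and 6.61% of all genes were called higher and 5.78% lower. Scaling by library totals left 9 higher and 2 lower in WT cells and turned no direction among the called genes. *Crim1*, whose product tethers BMPs, rose by 0.84 in WT and 0.68 in Y428F cells on the log2 scale (adjusted p = 2.06e-06 and 2.633e-07). *Rgma*, the gene of a BMP co-receptor, fell by 0.37 and by 0.51 (adjusted p = 0.0162 and 0.00283), and *Tgfbr3*, the gene of betaglycan, fell by 0.38 and by 0.25 (adjusted p = 0.00673 and 0.0449). The type II receptor gene *Acvr2a* rose in WT cells (0.32, adjusted p = 0.0229), and the co-receptor gene *Rgmb* (0.34, adjusted p = 0.0118) and the antagonist gene *Nbl1* (0.76, adjusted p = 0.0342) rose in Y428F cells. *Fstl1* rose in WT cells (0.20, adjusted p = 0.0459), a call that was lost with library totals only (adjusted p = 0.132). *Bmp1*, which encodes a protease that cleaves chordin, fell in Y428F cells by 0.24 (adjusted p = 0.023). Leaving out single libraries ended several of these calls. In WT cells *Fstl1* lost its call without vehicle replicate 2 or 3 or PTH replicate 1 or 2, *Acvr2a* without vehicle replicate 2 or PTH replicate 1 or 2, and *Rgma* without vehicle replicate 2 or 3 or PTH replicate 1 (adjusted p between 0.0516 and 0.134). In Y428F cells *Bmp1* lost it without any vehicle replicate or PTH replicate 1, *Nbl1* without vehicle replicate 1 or 2 or PTH replicate 3, *Rgmb* without vehicle replicate 3, and *Tgfbr3* without any of 8 of the 12 libraries, all but WT vehicle replicates 1 and 2, WT PTH replicate 3 and Y428F PTH replicate 2 (adjusted p between 0.0507 and 0.218).

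Of the 9 intracellular genes, 6 rose and 0 fell with PTH in WT cells, and 7 rose and 0 fell in Y428F cells, with median log2 fold changes of 0.28 and 0.27. Over all genes tested, 6.88% were called higher and 4.91% lower in WT cells, and 6.61% and 5.78% in Y428F cells. With library totals only, 3 and 5 of the 9 intracellular genes rose. *Smad9* rose most, by 0.84 (SE 0.12, adjusted p = 0.000493) in WT and 1.20 (SE 0.11, adjusted p = 5.244e-07) in Y428F cells. It had 7.67, 8.36 and 9.12 CPM in WT cells with vehicle and 15.3, 16.7 and 12.9 CPM with PTH, and in Y428F cells 8.49, 10.6 and 9.61 CPM with vehicle and 21.0, 24.0 and 20.9 CPM with PTH, without overlap between treatments. The receptor-regulated *Smad1* rose by 0.50 in WT cells (adjusted p = 0.00146) and 0.25 in Y428F cells (adjusted p = 0.0474). The inhibitory *Smad6* rose by 0.43 and 0.37 (adjusted p = 0.00229 and 0.000712), and *Smad7* by 0.28 and 0.70 (adjusted p = 0.0347 and 6.274e-06). The call of *Smad7* in WT cells was lost with DESeq2 (adjusted p = 0.0731), with library totals only (0.0817) and without vehicle replicate 2 or 3 or PTH replicate 1 or 2 (0.0872 to 0.112). The call of *Smad1* in Y428F cells was lost with library totals only (adjusted p = 0.0859) and without WT PTH replicate 2, any Y428F vehicle replicate or Y428F PTH replicate 1 or 2 (0.0509 to 0.188).

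Between the lines, 12 pathway genes were higher and 18 lower in Y428F cells with vehicle, of 40 tested, and 11 were higher and 15 lower with PTH, beside shares over all genes of 22.4% higher and 22.7% lower with vehicle and 22.8% and 23.0% with PTH. At these shares the counts of single lists, of 9 to 14 genes, are descriptions only. The median log2 fold change with vehicle was -0.28, or -0.15 with the 4 genes that had a group at 0 counts set at their bound, against 0.01 over all genes. Of 9 further receptors and co-receptors, 7 were lower with vehicle and 0 higher, with a median of -0.75, or -0.66 with the gene at 0 counts in Y428F cells set at its bound, and 5 were lower with PTH. *Acvr2b*, the gene of an activin type II receptor, had 5.40, 4.04 and 5.90 CPM in the WT vehicle libraries and 1.31, 1.16 and 1.09 CPM in the Y428F vehicle libraries, and its log2 fold change was -2.10 (SE 0.22, adjusted p = 1.008e-07). *Rgma* and *Rgmb* were lower by log2 fold changes of -1.26 and -1.07 with vehicle (adjusted p = 1.242e-09 and 1.389e-09), and *Eng*, the gene of endoglin, by -0.86 with PTH (adjusted p = 6.975e-10).

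Of the further antagonists 4 were higher and 4 lower in Y428F cells with vehicle, of 9 tested, with a median of 0.12. Of the 4 higher, *Bmper* and *Kcp*, named after their values were seen, had 0 counts in the WT vehicle libraries and at most 0.383 CPM in a Y428F vehicle library. Chordin's gene *Chrd* had 7.09, 7.22 and 7.35 CPM in the WT vehicle libraries against 0.822, 1.16 and 1.53 CPM in those of the Y428F line (log2 fold change -2.62, SE 0.22, adjusted p = 3.355e-09). *Nbl1*, which encodes a BMP antagonist of the DAN family, had 7.93, 10.0 and 11.5 CPM against 1.42, 1.52 and 2.02 CPM (log2 fold change -2.57, SE 0.20, adjusted p = 1.082e-09). The libraries of the lines did not overlap for either gene. *Chrd* and *Nbl1* were also lower with PTH (-2.48 and -1.92, adjusted p = 1.033e-08 and 2.488e-08), as was *Dand5* (-0.67, adjusted p = 0.000286). *Fstl3*, the gene of a follistatin-like ligand-binding protein, was higher with vehicle (0.58, adjusted p = 1.777e-07). *Bmp1* was lower with vehicle and PTH (-0.36 and -0.45, adjusted p = 0.000147 and 1.162e-05).

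Intracellular genes were split, with 3 higher and 3 lower with vehicle and 4 higher and 3 lower with PTH, of 9, but DESeq2 called 3 higher and 1 lower with vehicle. *Bambi*, which encodes a pseudoreceptor that dampens the signal, was lower by log2 fold changes of -0.84 with vehicle and -1.14 with PTH (adjusted p = 0.0283 and 0.00707), and *Smad4* by -0.37 with vehicle (adjusted p = 8.694e-06). The *Bambi* call with vehicle was lost with DESeq2 (adjusted p = 0.0596), with no filter on low counts (0.0562) and without WT vehicle replicate 2 or 3 or Y428F vehicle replicate 1 or 2 (0.0518 to 0.108). *Smad7* was higher by 0.31 with vehicle and 0.73 with PTH (adjusted p = 0.00517 and 2.489e-07), and *Smad9* by 0.55 with PTH (adjusted p = 0.000265).

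**Figure D3:**
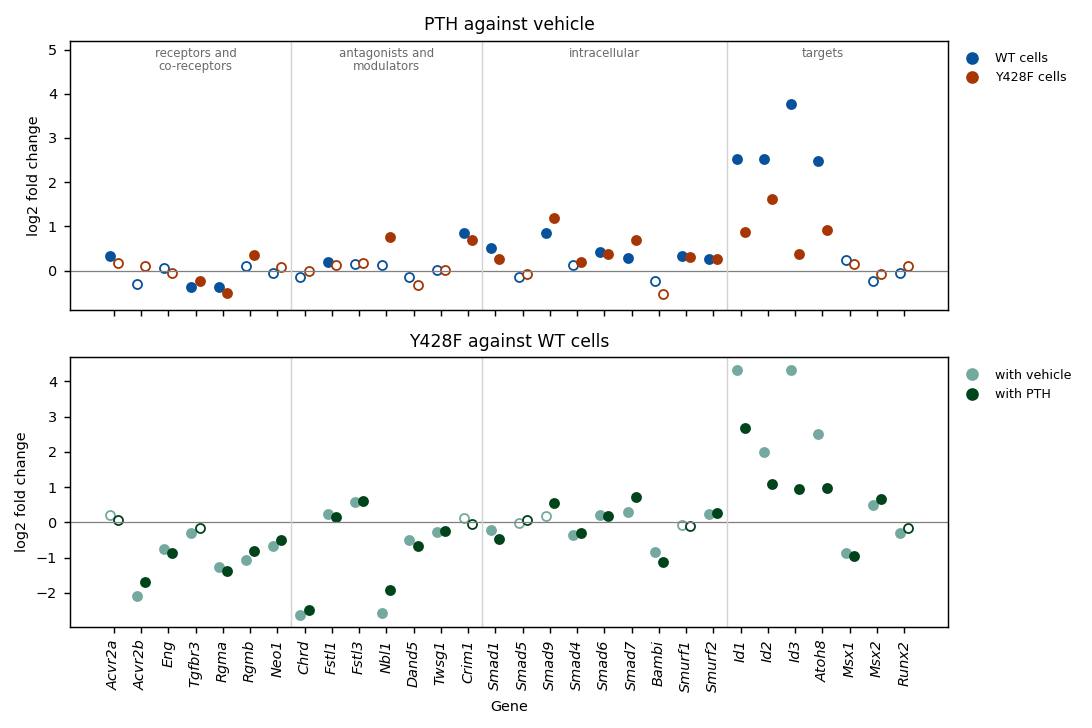
Log2 fold changes of the other pathway genes whose mean was 1 CPM or more, with PTH in each line (top) and between the lines with each treatment (bottom), with filled points for an adjusted p under 0.05. *Id1*, *Id3* and *Atoh8* had larger log2 fold changes with PTH in WT than in Y428F cells, from lower levels with vehicle. *Chrd* and *Nbl1* were lower in Y428F cells.

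Known targets of the pathway included the ID genes, which encode inhibitors of helix-loop-helix transcription factors, and *Atoh8*, a transcription factor gene. These genes also respond to other signals. The target list was chosen with earlier results of these data known, so its counts are descriptions only. Of 15 targets, among which *Smad6*, *Smad7*, *Smad9* and *Bambi* also belong to the intracellular list, 7 of 13 tested rose and 0 fell with PTH in WT cells (median log2 fold change 0.43), and 7 of 14 rose and 0 fell in Y428F cells (median 0.26). Over all genes tested the shares that rose and fell with PTH were 6.88% and 4.91% in WT, and 6.61% and 5.78% in Y428F. In Y428F against WT cells, 7 of 14 were higher and 3 lower with vehicle, and 8 were higher and 3 lower with PTH, beside 22.4% and 22.7% of all genes tested with vehicle and 22.8% and 23.0% with PTH.

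*Id3* had 3.39, 4.66 and 3.33 CPM in WT cells with vehicle and 51.6, 49.0 and 52.6 CPM with PTH. In Y428F cells it had 78.5, 71.8 and 76.8 CPM with vehicle and 107.7, 89.9 and 97.9 CPM with PTH. The Y428F vehicle libraries were thus above the PTH-treated WT libraries, and no groups overlapped. The log2 fold change of *Id3* with PTH was 3.76 in WT cells (SE 0.11, adjusted p = 3.283e-10) and 0.38 in Y428F cells (adjusted p = 0.00143), and that between the lines with vehicle was 4.32 (SE 0.10, adjusted p = 2.464e-17).

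*Id1* had 1.32, 1.25 and 1.07 CPM in WT cells with vehicle, 6.72, 7.57 and 6.81 CPM with PTH, 23.7, 27.4 and 23.0 CPM in Y428F cells with vehicle and 50.8, 40.0 and 44.5 CPM with PTH. Its 4 groups did not overlap and ran in the order WT vehicle, WT PTH, Y428F vehicle and Y428F PTH. *Id1* rose with PTH by 2.53 in WT and 0.87 in Y428F cells (adjusted p = 2.113e-06 and 2.787e-06) and was higher in Y428F cells by 4.34 with vehicle and 2.68 with PTH (adjusted p = 3.837e-15 and 6.099e-14). *Id2* rose by 2.52 and 1.61 (adjusted p = 6.712e-07 and 2.933e-08). It was higher in Y428F cells by 1.99 with vehicle and 1.09 with PTH (adjusted p = 3.485e-09 and 1.896e-07). *Atoh8* rose by 2.47 and 0.92 (adjusted p = 7.739e-09 and 1.248e-07). It was higher in Y428F cells by 2.52 with vehicle and 0.97 with PTH (adjusted p = 2.835e-14 and 2.553e-09). *Dlx5*, an osteoblast transcription factor gene, had 0 counts in every library.

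**Figure D4:**
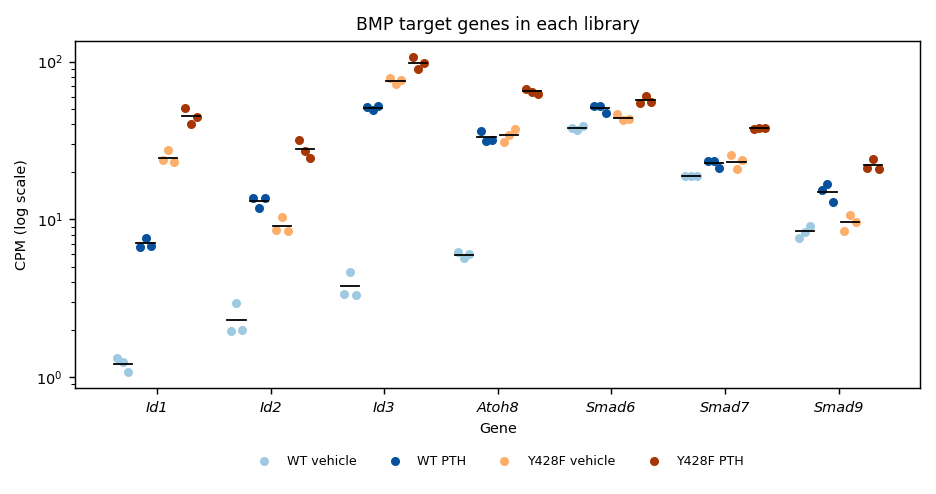
CPM on a log scale of 7 BMP target genes, with a point for each of the 12 libraries and a line for the mean of 3. *Id3* was below 5 CPM in WT cells with vehicle and between 71.8 and 107.7 CPM in Y428F cells, and *Smad9* was higher with PTH in each line.

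Of 40 other pathway genes tested for a difference in response, 3 were called, each with a smaller log2 response in Y428F cells, and 10 had an unadjusted p under 0.05. Of all 17691 genes tested, 1247 had an unadjusted p under 0.05. Over all genes tested, the log2 response was called smaller or more negative in Y428F cells for 0.243%, and the reverse for 0.17%. The Wald test of DESeq2 called 4 of the 40 lower, the addition being *Id2*, with a difference of -0.90 (SE 0.21, adjusted p = 0.072) in the quasi-likelihood test. The differences of the 3 genes were -3.38 for *Id3* (SE 0.13, adjusted p = 2.578e-12), -1.66 for *Id1* (SE 0.20, adjusted p = 0.000233) and -1.55 for *Atoh8* (SE 0.13, adjusted p = 1.044e-06) on the log2 scale.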

How the data were processed

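W-20 RNA-Seq libraries were made with poly-T selection from RNA chosen by its integrity. Per the labels and the study's methods, the authors aligned the reads with STAR 2.7.10b to GRCm39 with the GENCODE vM31 basic annotation and deposited expected counts from RSEM, unscaled, as a matrix of 56980 genes. Symbols and positions came from GENCODE vM39 on GRCm39, which matched 56236 identifiers. Whether the counting used strand was not settled by the sources used here.

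The deposited expected counts were made whole by rounding. Genes that summed to 10 counts or more entered edgeR 4.0.16 (R 4.3.3), normalized with TMM. The response of WT cells was fitted on the 6 WT libraries (15583 genes), and the other 4 comparisons on all 12 (17691 genes). Adjusted p-values came from the quasi-likelihood test of edgeR and were corrected by Benjamini-Hochberg over all genes of the fit, and a gene was called when it was under 0.05. SE is the standard error of a log2 fold change. The script was tested on simulated data.

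The 9 members and the gene lists were chosen with earlier results of these data known. Besides the 9 members, the genes named were, per list and comparison, up to 3 called genes of 1 CPM or more on average that changed most, every pathway gene whose difference in response was called, the 2 genes of most similar pattern for members that spanned at least 1 on the log2 scale, and marker genes. Others were named after their values were seen, among them neighbouring genes and further values of genes the rule names. Alternatives were DESeq2 1.42.0, its size factors, library totals, other filters, a replicate block, all 12 libraries for the WT response, and each library left out. The WT libraries enter both the WT response and the comparisons between lines. The promoter window of 1 member is not reported here.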

Additional observations from a re-analysis of the deposited data

Results flagged for a closer look

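The test of a difference between the lines in their response to PTH (edgeR, Benjamini-Hochberg adjusted) brought up 3 genes of the pathway lists. The log2 response of *Id3* was smaller in Y428F than in WT cells by a difference of -3.38 (adjusted p = 2.578e-12), from mean levels that were already higher in Y428F cells with vehicle. The differences were -1.66 for *Id1* (adjusted p = 0.000233) and -1.55 for *Atoh8* (adjusted p = 1.044e-06). For these genes the 3 PTH and 3 vehicle libraries did not overlap in either line.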

How the results depend on the processing

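Of 489 recomputed log2 fold changes of the 6 tested members, without 5 that DESeq2 left with no adjusted p, 460 kept their direction and side of the threshold, and 29 did not: 14 lost a call, 2 gained one and 13 changed sign. With the replicate number as a replicate block, the members called higher with PTH in WT cells went from 1 to 0 (*Bmpr1a* 0.22, adjusted p = 0.0743), and no other member's call changed, while *Fstl1* and *Smad7* lost theirs in WT cells (adjusted p = 0.115 and 0.0686). The numbers did not pair the libraries: residuals of same-numbered libraries had a mean correlation of 0.0019 over 18 pairs (-0.031 to 0.037), and 5 of 12 libraries correlated best with their own number. With library totals only, 0 members rose in WT cells and 1216 genes were lower. With at least 10 counts in every library, *Bmp4* and *Bmpr1b* were not tested, and 0 members were called lower with PTH in Y428F cells or higher between the lines with vehicle or PTH. For the difference in response, DESeq2 called 51 genes higher and 72 lower, and no filter on low counts 96 and 120.

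With each library left out, members called higher with PTH ranged from 0 to 1 in WT and from 1 to 3 in Y428F cells, those called lower in Y428F cells from 0 to 1, and those lower between the lines with PTH from 1 to 2. Genes called with PTH in WT cells ranged from 613 to 1305 higher and from 292 to 906 lower, those lower in Y428F cells from 616 to 1186, and those that differed in response from 6 to 37 higher and from 18 to 57 lower. None of the values that changed sign was called: *Bmpr1b* ranged from -1.20 to 0.37 and *Bmpr2* from -0.0598 to 0.0342 with PTH in WT cells, *Bmpr1b* from -0.184 to 0.0476 in Y428F cells, *Bmp6* from -0.03 to 1.99 between the lines with PTH, and, for the difference in response, *Bmpr1a* from -0.0354 to 0.0314 and *Bmpr1b* from -0.45 to 1.13. The cause was not tested. Counts of up to 8 per library limit *Bmp2*, *Bmp6* and, in WT cells, *Bmp4* and *Bmpr1b*.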
